A study of Homo sapiens with 4 samples.

Results

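The genes described here are 50 rows of the expression table whose symbols begin with POLR1, or with NOP, NOL, UTP, RRP or EXOSC followed by a number, or are NOLC1, IMP3 or IMP4. Most encode proteins that make ribosomes in the nucleolus or that form the RNA exosome. Members were taken by symbol alone, and each had to lie above 0 in at least 2 of the 4 libraries. All 50 matching rows did so, out of 16945 genes that pass the same filter and 25066 that are listed. By known function the 50 fall into 10 exosome subunits, 5 RNA polymerase I subunits, 19 small subunit factors, 9 large subunit factors, 4 proteins of small nucleolar RNPs (snoRNPs) and 3 genes that share only the name.

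RNA was sequenced from NUDUL1, an established human lymphoma line of the diffuse large B cell kind with a germinal center phenotype. All 4 libraries came from cells of a single-cell clone with doxycycline-inducible Cas9 that had been transduced with the thromboxane receptor gene Tbxa2r, and all were treated with U46619, a stable thromboxane-A2 analog, at 10 nM for 24 h. Per genotype there were 2 libraries, which carried either a control guide RNA or a guide RNA against GNA13, the gene of the G protein subunit Gα13 that this receptor signals through. The comparison therefore asks how cells labelled as lacking Gα13 differ from control cells while the receptor is stimulated, with 1 guide per genotype and with no unstimulated library. No source used here says whether the duplicates were separate cultures, so p-values measure the spread between these libraries, which may be technical.

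Depth was even. The control libraries held 29209544 and 31537955 mapped reads and the GNA13-deficient libraries 30141459 and 29685942, and the members took 0.471% and 0.443% of the control reads against 0.495% and 0.478%. Values are the deposited log2 normalised reads, so a difference of 1 is a doubling. GNA13 itself read 12.46 and 12.45 in control but 13.10 and 13.11 under the GNA13-deficient label, which differ by 0.65 ± 0.05 (SE, limma adjusted p = 0.00214). Its mRNA was thus higher, not lower, in both libraries that the labels call deficient. The table holds no protein measurement, so every direction below is that of the libraries labelled GNA13-deficient, called GNA13-labelled libraries from here on.

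The libraries carried the defining genes of B cells. CD79B, part of the B cell receptor, had 18406 and 20831 reads in control and 17208 and 19198 in the GNA13-labelled libraries, and PAX5, a B cell transcription factor, had 7176 and 7493 against 8022 and 6759. MS4A1, which encodes CD20, had 11633 and 12673 against 7743 and 7846 reads, and CD79A and CD22 were also present in every library. Among 5 germinal center markers, MME had 16961, 16664, 16404 and 15157 reads and MYBL1 51, 46, 81 and 44, while BCL6 went from 1692 and 1935 reads to 293 and 323, LMO2 went from 271 and 269 to 17 and 23, and SERPINA9 was at 0 in all 4 libraries. The 4 T cell genes CD3D, CD3E, CD3G and CD2 summed to 1 read over the series, where a gene listed at 0 in control library 2 may hold 1 read. Of the myeloid genes CD14, LYZ, CSF1R and ITGAM, which summed to 224 and 246 against 27 and 25 reads, ITGAM was the most abundant in control and CD14 had at most 2 reads. Epithelial reads were from EPCAM alone, at 37, 46, 88 and 97, with KRT8, KRT18 and KRT19 at 0. The fibroblast genes COL1A1, COL1A2, PDGFRA and PDGFRB summed to 8, 4, 22 and 10 reads, with COL1A1 the most abundant. The part of these marker differences in the results below was not tested.

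As background, RNA polymerase I transcribes the ribosomal DNA into a long precursor in the nucleolus. The small subunit processome, a large assembly built around the U3 snoRNP, folds and cuts the part that becomes the small subunit, while other factors mature the large subunit and box C/D and box H/ACA snoRNPs guide chemical marks on the RNA. The RNA exosome is a ring of subunits with a cap and attached nucleases that trims and degrades RNA from the 3′ end, in ribosome synthesis and in messenger RNA surveillance. MYC is widely known to promote ribosome production in proliferating cells, including germinal center B cells.

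Of the 50 members, 9 were called higher and 4 lower in the GNA13-labelled libraries (limma, adjusted p under 0.05 over all genes tested), and 37 were not called. Over all genes, 13.1% were called higher and 16.6% lower, or 29.7% in either direction. Of the members, 18% were called higher and 8% lower, or 26% in either direction. Differences were above 0 for 39 members and below 0 for 11. Their median was 0.12, against -0.02 over all genes and 0.03 over the 8473 genes at or above the median level, a closer match because the members are abundant, with a median level at percentile 83.1. In that upper part, 21.3% of all genes were called higher and 17.7% lower, against 9 (19.1%) and 3 (6.38%) of the 47 members that lie there. In either direction the shares there were 39% of all genes and 25.5% of the members.

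The genotypes did not overlap for 38 members, 30 of them higher and 8 lower, where 65.3% of all genes showed no overlap. At or above the median level the share was 74.5% of the 47 members and 74% of all genes, so the members stood at the background. Among all 50, 3 members differed by more than 0.5, which 37.1% of all genes did, and at or above the median level 2 of 47 members (4.26%) and 18.6% of all genes did. Between the 2 libraries of a genotype, the control values of a member lay a median of 0.07 apart and at most 0.27, and the GNA13-labelled values a median of 0.07 and at most 0.53. For the 37 members not called, the 95% interval reached a median of 0.17 to either side of the difference. MYC fell from 13.79 and 13.77 to 13.22 and 13.23, a difference of -0.55 ± 0.06 (SE, limma adjusted p = 0.00358). In RNA from whole cultures, fewer cells of a kind and less RNA per cell cannot be told apart.

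**Figure D1:**
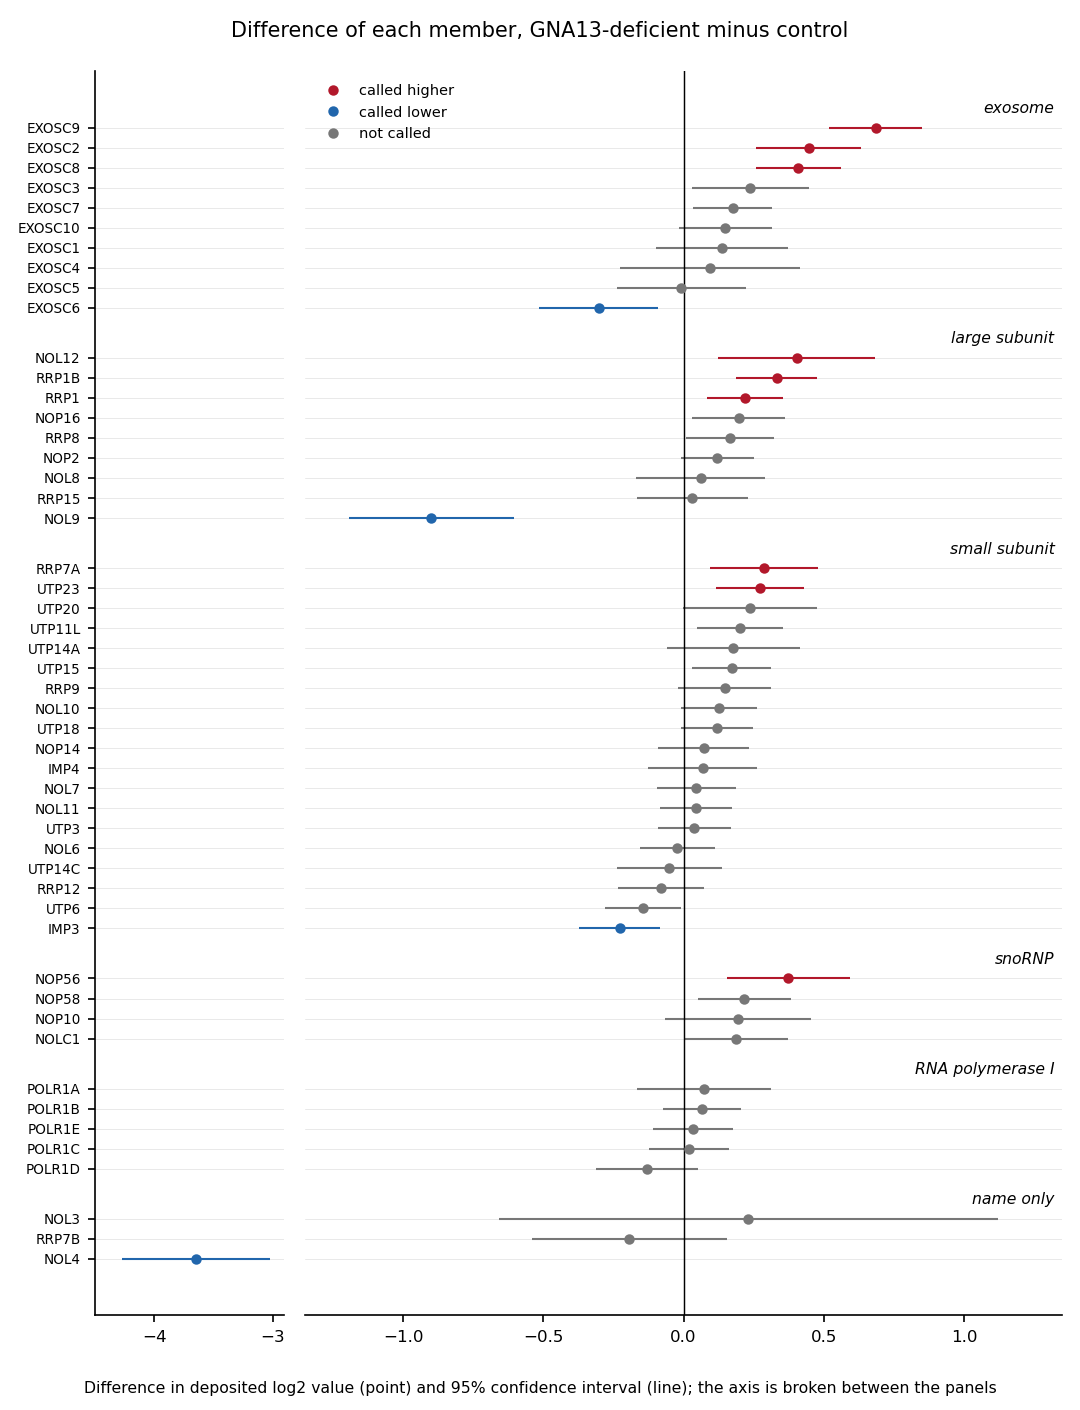
Each point is the difference in deposited log2 value of 1 member, GNA13-labelled libraries minus control (2 libraries each), with its 95% confidence interval as a line, grouped by role and with the horizontal axis broken. Most points lie a little above 0, the 9 called higher reach at most 0.69, and NOL9 and NOL4 lie far to the left at -0.90 and -3.65.

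How the table was scaled bears on every direction given here. The deposited scale gave 44% of all calls as higher. When each library was instead centred on its median, that share was 69.1% and the median difference of all genes went from -0.02 to 0.18. On that scale 31 members were called higher and 2 lower, those 2 being NOL4 and NOL9, beside 4311 and 1924 of the 16945 genes. Among genes at or above the median level, the closer match, the members' median excess was 0.099. Measured from the median of all genes tested it was 0.15. Centring moves all genes of a library alike, so it cannot change this excess. With quantile normalization the excess shrank to 0.01, with 7 members called higher and 3 lower, beside 2741 and 2547 of all genes. With all listed genes fitted, the members called were EXOSC8 and EXOSC9 (higher) and NOL4 (lower), beside 815 higher and 1184 lower of 25066 genes. Without a variance trend they were EXOSC9 (higher), NOL4 and NOL9 (lower), beside 986 and 1732 of 16945. Calls also depended on having all 4 libraries: with any 1 of the 4 left out, limma called 0 of the 16945 genes (5257 to 5600 at an unadjusted p under 0.05), and between 37 and 39 member differences were above 0.

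**Figure D2:**
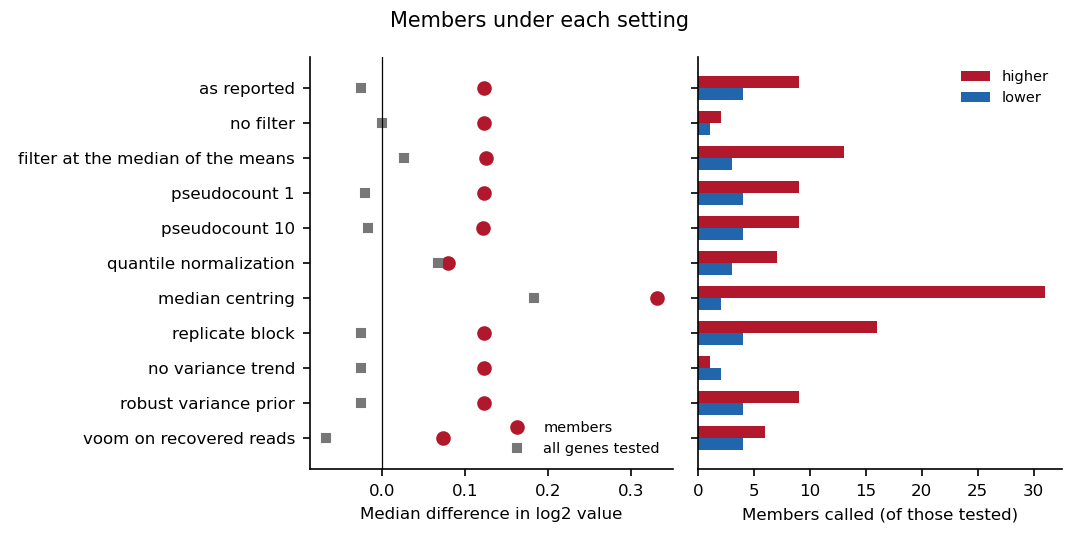
Left, the median difference in log2 value of the members (circles) and of all genes tested (squares) under each processing setting. Right, how many members were called higher or lower, from 1 higher without a variance trend to 31 with median centring, and the gap between circle and square nearly closes with quantile normalization.

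Promoter sequence was available from RefSeq (GRCh38.p14, 250 bases before to 50 after the start) for 40 of the 50 members, and lacking for POLR1E, EXOSC1, EXOSC4, RRP1B, RRP7B, NOL10, RRP12, UTP23, NOLC1 and NOP58. These were searched on both strands for CACGTG, the E-box to which MYC with its partner MAX can bind. It was present in 12 of the 40 member promoters (30%), against 9.86% of 11662 promoters of tested genes and 7.44% of all 27305. The 12 were those of EXOSC5, IMP4, NOL6, NOL7, NOL8, NOP2, NOP10, NOP14, RRP9, UTP14A, UTP18 and UTP20. None of the 12 genes was called in the fit reported here, where 29.7% of all genes and 39% of those at or above the median level were called. However, UTP20 was called higher when genes below the median level were left out, and NOL7, NOP2, NOP14, RRP9, UTP14A, UTP18 and UTP20 with median centring. By the calls reported, the letters were in 0 of 7 searched promoters of members called higher, 0 of 4 of those called lower and 12 of 29 of the rest. Calls among the other tested genes with CACGTG were not counted, so this split has no background, and a link between the letters and the calls was not tested.

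In the sequences that follow, given 5′ to 3′ on the strand of the gene, capitals mark CACGTG. The first 4 are the member promoters that hold the box in more than 1 place, shown for the part before the transcription start, and were picked after their values were seen. They lie at chr19:41397396-41397495 (EXOSC5, minus strand), chr2:130342647-130342746 (IMP4, plus strand), chr15:34343137-34343321 (NOP10, minus strand) and chr17:51260410-51260509 (UTP18, plus strand). The last is the 100 bases before the start of EXOSC9, the gene with the largest rise, at chr4:121801223-121801322 on the plus strand. It holds no CACGTG, and its capitals mark CCAAT, a box found as ATTGG on the other strand.
EXOSC5: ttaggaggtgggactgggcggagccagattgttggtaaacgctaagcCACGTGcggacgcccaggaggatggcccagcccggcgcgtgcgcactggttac
IMP4: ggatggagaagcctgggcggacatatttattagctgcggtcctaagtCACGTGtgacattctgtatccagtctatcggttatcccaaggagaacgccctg
NOP10: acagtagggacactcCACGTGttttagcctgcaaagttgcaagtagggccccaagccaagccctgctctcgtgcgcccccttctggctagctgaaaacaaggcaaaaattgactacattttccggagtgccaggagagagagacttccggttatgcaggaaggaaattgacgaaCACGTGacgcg
UTP18: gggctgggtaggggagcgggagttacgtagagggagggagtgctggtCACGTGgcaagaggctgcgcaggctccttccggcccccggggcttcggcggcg
EXOSC9: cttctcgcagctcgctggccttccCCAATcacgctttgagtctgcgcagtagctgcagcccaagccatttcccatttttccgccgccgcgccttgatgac

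Of the other letters searched, ATTGG was in 15 of the 40 (37.5%, against 36.5% of tested genes), CCGGAAGT in 3 (7.5% against 8.19%), GCGCATGC in 4 (10% against 5.28%) and TATAAA in 2 (5% against 6.63%). Neither TTTCCCGC nor TTTGGCGC, letters of E2F sites, was in any of the 40, against 2.49% and 1.02%. A match is a run of letters and not a measured binding site.

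Of the 10 exosome subunits, 3 were called higher and 1 lower, beside 13.1% and 16.6% of all genes, and their median difference was 0.16. The lower call was absent with quantile normalization, which called 3 higher and 0 lower, and with median centring, which called 6 higher and 0 lower (1 and 0 lower at an unadjusted p under 0.05). EXOSC9, a subunit of the ring, read 10.82 and 10.73 in control and 11.42 and 11.50 in the GNA13-labelled libraries, so the genotypes were far apart. This is a 1.61-fold rise (log2 difference 0.69 ± 0.06 SE, limma adjusted p = 0.00302), the largest rise of any member, and it rested on 1778 and 1721 reads against 2665 and 2696.

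EXOSC9 lies on chr4:122722473-122738176 (GRCh37, plus strand), and 254 bases of its exons, 16% of its transcript, overlap exons of CCNA2 on the opposite strand. CCNA2, which encodes cyclin A2, read 11.40 and 11.48 in control and 12.49 and 12.56 in the GNA13-labelled libraries, a difference of 1.08 ± 0.06 (SE, limma adjusted p = 0.00115). The kit marked strand, but whether the counting used it is not given in the sources used here, and the part of these shared bases in the rise of EXOSC9 was not tested. EXOSC8 shares 303 exon bases, 26% of its transcript, with SUPT20H, which was not called (-0.22).

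EXOSC8, another ring subunit, went from 10.71 and 10.68 to 11.06 and 11.15. Both GNA13-labelled values lay above both controls, a 1.33-fold rise (0.41 ± 0.06 SE, limma adjusted p = 0.00851). EXOSC2, an RNA-binding subunit of the cap, went from 11.18 and 11.19 to 11.55 and 11.71, a 1.36-fold rise (0.45 ± 0.07 SE, limma adjusted p = 0.0126). EXOSC6, also of the ring, moved the other way, from 9.80 and 9.89 to 9.61 and 9.47, a 1.23-fold fall (-0.30 ± 0.08 SE, limma adjusted p = 0.0490) that passed under 6 of the 10 settings tried on all 4 libraries, against 10 of 10 for EXOSC9.

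The ring of the exosome is built from 2 kinds of subunit related to a bacterial nuclease, RRP41-like (EXOSC4, EXOSC5 and EXOSC6) and RRP42-like (EXOSC7, EXOSC8 and EXOSC9), which alternate around it. Grouped in this way, after the values were seen, the RRP42-like genes differed by 0.17, 0.41 and 0.69 and the RRP41-like genes by 0.09 (EXOSC4), -0.01 (EXOSC5) and -0.30 (EXOSC6). Summed reads of the RRP42-like genes were 4847 and 4880 in control and 6375 and 6312 in the GNA13-labelled libraries. Those of the RRP41-like genes were 3716 and 4365 against 3680 and 3771, with overlapping genotypes. The difference between the 2 kinds was not tested.

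Of the remaining subunits, EXOSC7 (0.17, limma adjusted p = 0.0708) and the cap gene EXOSC3 (0.24, limma adjusted p = 0.0866) came close to the threshold without passing it. EXOSC1 of the cap (0.14) and EXOSC10, the nuclear exonuclease RRP6 (0.15), were further from it. Reads per kilobase of transcript, which allow levels of different genes to be compared, ran in control from 178 for EXOSC6 to 2136 for EXOSC5, so the subunit that fell was also the least abundant. EXOSC4 shares 89.9% of its 50-base stretches with an overlapping locus, and its value is uncertain.

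**Figure D3:**
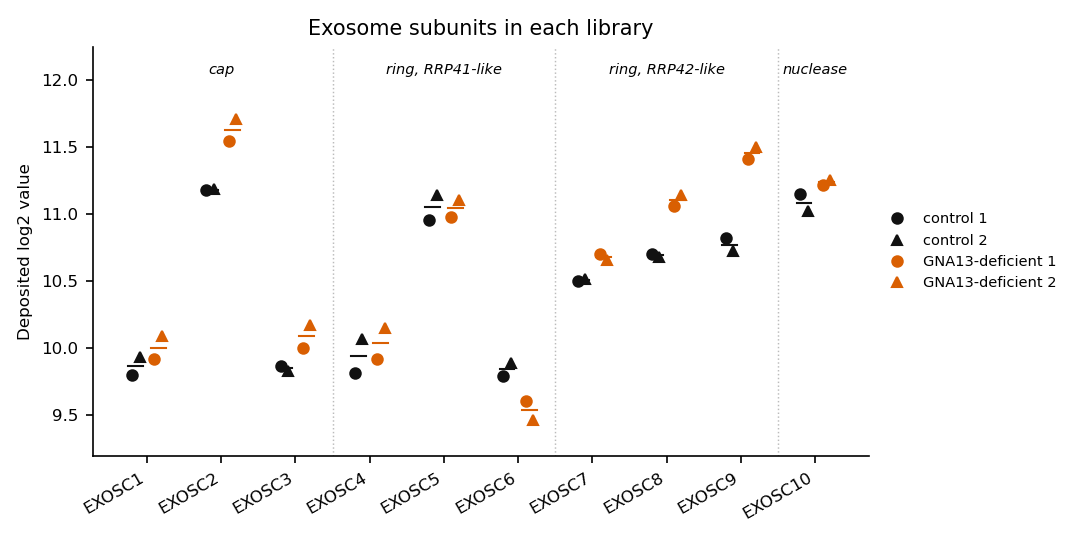
Deposited log2 values of the 10 exosome subunits in each library, controls in black and GNA13-labelled libraries in orange, with circles and triangles for libraries 1 and 2 and short lines for the genotype means. EXOSC2, EXOSC8 and EXOSC9 lie clearly higher in both orange libraries, EXOSC6 lies lower, and EXOSC1, EXOSC4 and EXOSC5 overlap.

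A list of 17 genes, with a median of 0.05, held proteins that work with the exosome and also separate exonucleases, namely ERI1, ISG20L2 and XRN2. Of the 17, 5 were called higher, ERI1 and ISG20L2 among them, and 2 lower. The shares were 13.1% and 16.6% of all genes and 21.3% and 17.7% of those at or above the median level. With quantile normalization and with limma voom, 3 were called higher and 3 lower, and the quantile median was -0.04. Median centring gave 9 and 0, and the fits of all listed genes and without a variance trend 1 and 0 each. ERI1, a 3′ exonuclease, rose from 9.89 and 9.96 to 10.42 and 10.39 (0.48 ± 0.06 SE, limma adjusted p = 0.00648). RBM7, an RNA-binding protein that directs the nuclear exosome to its targets, fell from 9.41 and 9.74 to 8.81 and 8.95 (-0.69 ± 0.13 SE, limma adjusted p = 0.0195). Both kept their genotypes apart in all libraries, but RBM7 was not called with median centring (limma adjusted p = 0.0617), with all listed genes fitted (0.141) or without a variance trend (0.0779). Picked after their values were seen, DIS3, the nuclear catalytic subunit, rose by 0.25 (limma adjusted p = 0.0320), while DIS3L, its cytoplasmic counterpart, fell by 0.28 (limma adjusted p = 0.0341). The nuclear cofactors MPHOSPH6 and C1D, likewise picked later, differed by 0.40 and 0.36, both called higher.

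None of the 5 POLR1 subunits was called by limma, and 0 of the 5 reached an unadjusted p under 0.05. On recovered read counts with limma voom 0 were called and 1 had an unadjusted p under 0.05. POLR1A, the largest catalytic subunit, read 11.67 and 11.78 in control and 11.91 and 11.69 in the GNA13-labelled libraries, so the genotypes overlapped (0.07 ± 0.09 SE, 95% interval -0.17 to 0.31). POLR1B, the second catalytic subunit, read 12.21 and 12.27 against 12.30 and 12.31, a difference of 0.06 ± 0.05 (SE, interval -0.07 to 0.20). Both GNA13-labelled values of POLR1B lay just above the controls.

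POLR1C and POLR1D, which RNA polymerase III also uses, differed by 0.02 ± 0.05 and -0.13 ± 0.07 (SE, intervals -0.12 to 0.16 and -0.31 to 0.05). POLR1C read 10.33 and 10.32 against 10.36 and 10.33, and POLR1D 11.70 and 11.78 against 11.54 and 11.68. POLR1E, the PAF53 subunit, read 10.80 and 10.73 against 10.79 and 10.80 (0.03 ± 0.06 SE, interval -0.11 to 0.18). The median of the 5 differences was 0.03. With the libraries centred on their medians, 3 of the 5 were called higher and POLR1D stood at 0.08. POLR1B was at -0.02 with quantile normalization, and POLR1C at -0.03 and POLR1E at -0.01 with limma voom, so the sign of these small differences depended on the processing.

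Subunits and factors of the same polymerase under other symbols formed a list of 21 genes, with 2 called higher and 5 lower. The shares were 13.1% and 16.6% of all genes and 21.3% and 17.7% of those at or above the median level. TWISTNB, the older symbol of a stalk subunit of RNA polymerase I, fell from 11.50 and 11.60 to 11.04 and 11.06 (-0.50 ± 0.06 SE, limma adjusted p = 0.00530). TAF1D, a subunit of the promoter selectivity factor, read 10.61 and 10.14 in control and 9.72 and 9.39 in the GNA13-labelled libraries, a fall of 1.77-fold with replicates well apart (-0.83 ± 0.19 SE, limma adjusted p = 0.0328). TAF1D was not called with median centring (limma adjusted p = 0.0513), with all listed genes fitted (0.216) or without a variance trend (0.115). ZNRD1, a small subunit of the polymerase that was picked out after its value was seen, read 9.43 and 9.45 against 8.90 and 9.08 (-0.45 ± 0.09 SE, limma adjusted p = 0.0226). POLR2K, a subunit common to all nuclear RNA polymerases and likewise picked out later, rose by 0.46 (limma adjusted p = 0.0129). The list median was 0.12. With median centring 9 of the list were called higher and 1 lower. The counts were 1 and 1 with all listed genes fitted and 0 and 1 without a variance trend.

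The 19 small subunit factors had a smaller median than any other functional class but the polymerase. Of these, 2 were called higher and 1 lower, beside 13.1% and 16.6% of all genes, and the median was 0.07. Quantile normalization and limma voom called 1 and 0 higher, each with 1 lower, while median centring called 13 higher and 0 lower with a median of 0.28. RRP7A, a processome component, went from 11.48 and 11.45 to 11.66 and 11.84, with both GNA13-labelled values above the controls, a rise of 1.22-fold (0.29 ± 0.07 SE, limma adjusted p = 0.0436). It shares 13.3% of its 50-base stretches with the pseudogene RRP7BP and 297 exon bases with SERHL on the opposite strand (0.21, called higher), so its reads may be divided among loci. UTP23, which acts in release of a small nucleolar RNA from the precursor, went from 10.05 and 10.10 to 10.32 and 10.38 (0.27 ± 0.06 SE, limma adjusted p = 0.0286).

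IMP3, which joins U3 to the ribosomal precursor together with IMP4, went down from 11.01 and 11.04 to 10.76 and 10.83 (-0.23 ± 0.06 SE, limma adjusted p = 0.0372). Every control value was above every GNA13-labelled value. Its partner IMP4 read 11.33 and 11.42 against 11.36 and 11.52, which overlap (0.07). IMP3 is on chr15:75931426-75941047 (GRCh37, minus strand), and 41.1% of its transcript is overlapped by a noncoding locus on the other strand that was not tested. RRP7A and UTP23 were not called by limma voom on recovered reads, RRP7A was not called with quantile normalization, and IMP3 was not called with median centring.

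The other 16 small subunit factors had differences between -0.15 (UTP6, of the UTP-B subcomplex) and 0.24 (UTP20, a large scaffold protein). UTP11L (0.20, limma adjusted p = 0.0616) and UTP15 (0.17, limma adjusted p = 0.0759), a factor that also acts in ribosomal DNA transcription, came nearest to the threshold. UTP14C, an expressed retrocopy of UTP14A, differed by -0.05 and UTP14A by 0.18. Every exon base of UTP14C lies within exons of ALG11, a glycosyltransferase gene that was called lower (-0.55), so that its reads cannot be assigned. A list of 39 further tested small subunit factors had 7 called higher and 3 lower with a median of 0.09, beside 13.1% and 16.6% of all genes and 21.3% and 17.7% of those at or above the median level. The counts were 6 and 3 with quantile normalization, 5 and 3 with limma voom and 22 and 1 with median centring. With all listed genes fitted they were 0 and 2, and without a variance trend 0 and 1.

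Among those 39, BYSL, a late small subunit factor, rose from 11.32 and 11.42 to 11.72 and 11.86 (0.42 ± 0.07 SE, limma adjusted p = 0.0155). DDX10, an RNA helicase of the processome, fell 1.85-fold, from 11.08 and 10.89 to 10.08 and 10.11 (-0.89 ± 0.08 SE, limma adjusted p = 0.00294). The 2 genes changed in opposite directions, and for each the genotypes stood apart.

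The snoRNP proteins had the highest median level of the classes, and all 4 differences lay above 0. In reads per kilobase, control levels ran from 3280 for NOP58 to 5080 for NOP56, against a median of 972 for the 50 members. NOP56, a core protein of box C/D snoRNPs, read 13.34 and 13.15 in control and 13.65 and 13.59 in the GNA13-labelled libraries, a 1.30-fold rise on 10197 and 9206 against 12484 and 11447 reads (0.37 ± 0.08 SE, limma adjusted p = 0.0307). NOP58, its partner in the same particle, went from 12.73 and 12.61 to 12.91 and 12.88 and did not pass (0.22 ± 0.06 SE, limma adjusted p = 0.0623). Both genes had all GNA13-labelled values above all controls.

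NOP10, a core protein of box H/ACA snoRNPs and of telomerase, differed by 0.19 and NOLC1, a snoRNP chaperone of the nucleolus, by 0.19, neither called. With quantile normalization 0 of the 4 were called (limma; 0 at an unadjusted p under 0.05), while all 4 differences stayed above 0. NOP56 and NOP58 were called higher when genes below the median level were left out, and NOP56, NOP58 and NOLC1 with median centring. A list of 17 related snoRNP and nucleolar scaffold genes had 6 called higher and 0 lower by limma (9 and 0 at an unadjusted p under 0.05) and a median of 0.21. The shares were 13.1% and 16.6% of all genes and 21.3% and 17.7% of those at or above the median level. The list is abundant, with a median level at percentile 94.4. Limma voom called 6 of the list higher and quantile normalization 5, median centring 13, and the fits of all listed genes and without a variance trend 1 each, with 0 lower in each of these. FBL, fibrillarin, the methyltransferase of box C/D snoRNPs, rose from 13.56 and 13.68 to 13.99 and 14.09 (0.42 ± 0.08 SE, limma adjusted p = 0.0171). TCOF1, treacle, a scaffold of ribosomal DNA transcription, rose 1.55-fold, from 12.37 and 12.38 to 13.01 and 13.01 (0.63 ± 0.05 SE, limma adjusted p = 0.00221).

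Large subunit factors were called higher 3 times and lower once among 9, beside 13.1% and 16.6% of all genes, with a median of 0.16. With median centring 6 were called higher and 1 lower, and with limma voom 2 and 1. The counts were 0 and 0 with all listed genes fitted and 0 and 1 without a variance trend. NOL12, an exonuclease homolog of this pathway, read 9.09 and 9.31 in control and 9.53 and 9.68 in the GNA13-labelled libraries (0.40 ± 0.11 SE, limma adjusted p = 0.0482), and 27.8% of its transcript is shared with an overlapping locus on the same strand. RRP1B, a nucleolar protein that also binds chromatin, went from 12.44 and 12.42 to 12.80 and 12.72 (0.33 ± 0.06 SE, limma adjusted p = 0.0136). Its paralog RRP1 went from 11.01 and 11.07 to 11.26 and 11.26 (0.22 ± 0.05 SE, limma adjusted p = 0.0351), but was not called by limma voom (adjusted p = 0.0866). The genotypes were separate for all 3, but none of the 3 was called with all listed genes fitted or without a variance trend.

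NOL9, a polynucleotide kinase that prepares the ends of a cut spacer RNA, showed the largest change of any member with a role in ribosome synthesis. It read 10.57 and 10.37 in control and 9.69 and 9.46 in the GNA13-labelled libraries, on 1497 and 1349 against 805 and 653 reads. This was a 1.87-fold fall (-0.90 ± 0.11 SE, 95% interval -1.19 to -0.61, limma adjusted p = 0.00634), larger than the gap between replicates of any member. Other large subunit factors lay between 0.03 (RRP15) and 0.20 (NOP16), none called. NOP2, an rRNA methyltransferase, differed by 0.12, and 95.8% of its transcript is overlapped by another locus on the same strand.

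NOL9 occupies chr1:6581407-6614573 (GRCh37, minus strand), and its neighbours were looked at after its value was seen. Of the 10 tested genes with a matched position that lie at least in part within 100 kb of its ends, NOL9 included, 6 were called lower and 0 higher (limma; 0 higher at an unadjusted p under 0.05, and 0 under limma voom). With median centring 6 were called lower and 2 higher, and with all listed genes fitted 3 lower and 0 higher. These 6 follow each other among the tested genes along the chromosome. TAS1R1, a taste receptor gene that starts 794 bases away on the other strand, went from 869 and 974 reads to 60 and 68, a 13.7-fold fall (-3.78 ± 0.14 SE, limma adjusted p = 0.00071). TNFRSF25, a death receptor gene of lymphocytes, went from 141 and 91 reads to 10 and 4 (-4.09 ± 0.54 SE, limma adjusted p = 0.00699).

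PLEKHG5 fell by 2.12 on the log2 scale, ZBTB48, a telomere-binding protein, by 1.31, and KLHL21, an adaptor of a ubiquitin ligase, by 0.53, all called by limma. On either side ESPN with 1 read or none in each library, PHF13 (0.05), THAP3 (-0.59) and DNAJC11 (0.11) were not called. Around the other 49 members the same windows held 217 tested genes, counted once per window, of which 42 or 19.4% were called lower. These counts leave out the member at the centre of each window, and on that basis NOL9 had 5 of 9 lower. RRP1, itself higher, had 4 of 5 neighbours lower, and NOP14 4 of 6. POLR1E, not called, had 3 of 4 lower and IMP3, itself lower, 3 of 5. Of the 16 members that start within 1000 bases of a gene on the opposite strand, 3 had a partner called lower. This is near the background, where 16.6% of all genes and 17.7% of those at or above the median level were called lower. The 3 were NOL9 with TAS1R1, UTP18 with MBTD1 (-0.58) and EXOSC7 with ZDHHC3 (-0.24), and of these 3 members only NOL9 was itself called.

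**Figure D4:**
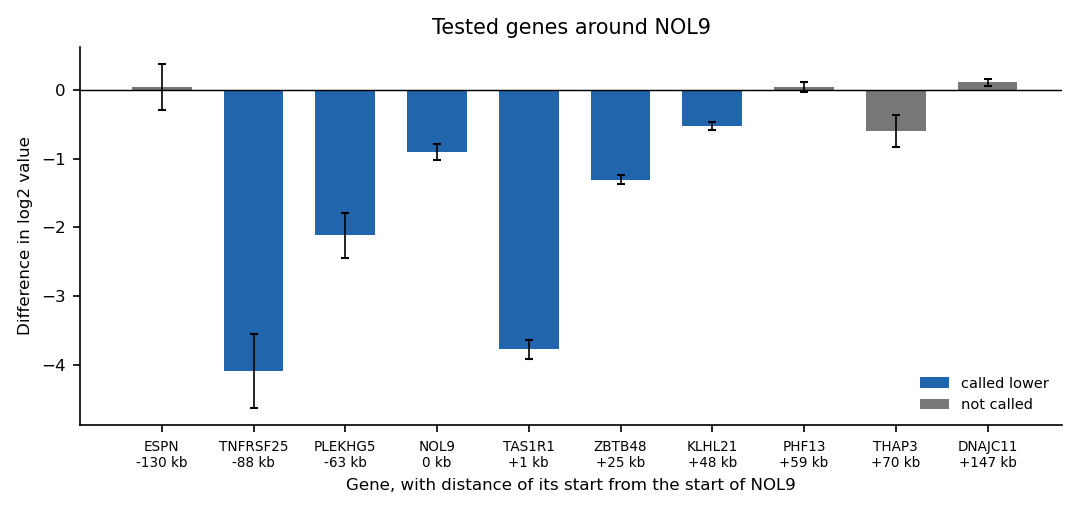
Bars give the difference in log2 value, GNA13-labelled libraries minus control, with its SE, for the 10 tested genes that lie at least in part within 100 kb of the ends of NOL9, in the order of their starts and labelled with the distance between starts in kilobases, which may exceed 100. The 6 genes from TNFRSF25 to KLHL21 are all called lower, from -0.53 to -4.09, and the flanking 4 are not called.

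A list of 51 further tested large subunit factors had 11 called higher (21.6%) and 3 lower (5.88%) with a median of 0.04. The shares were 13.1% and 16.6% of all genes, and 21.3% and 17.7% of those at or above the median level. Quantile normalization called 6 of the list higher and 7 lower, limma voom 7 and 7 and median centring 24 and 1. With all listed genes fitted the counts were 3 and 2, and without a variance trend 1 and 1. MRTO4, an assembly factor of the ribosomal stalk, rose 1.58-fold, from 11.65 and 11.60 to 12.24 and 12.34 (0.66 ± 0.06 SE, limma adjusted p = 0.00276). DDX56, an RNA helicase, fell 1.67-fold, from 11.81 and 11.92 to 11.15 and 11.09 (-0.74 ± 0.06 SE, limma adjusted p = 0.00249). Over all 5 lists, 145 of 152 genes were tested, 31 were called higher (21.4%) and 13 lower (8.97%), with a median of 0.08, beside 13.1% and 16.6% of all genes and 21.3% and 17.7% of those at or above the median level. The counts were 23 and 18 with quantile normalization, 22 and 18 with limma voom and 77 and 3 with median centring, and the median was 0.04, 0.03 and 0.29 in that order. They were 6 and 5 with all listed genes fitted and 3 and 3 without a variance trend.

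**Figure D5:**
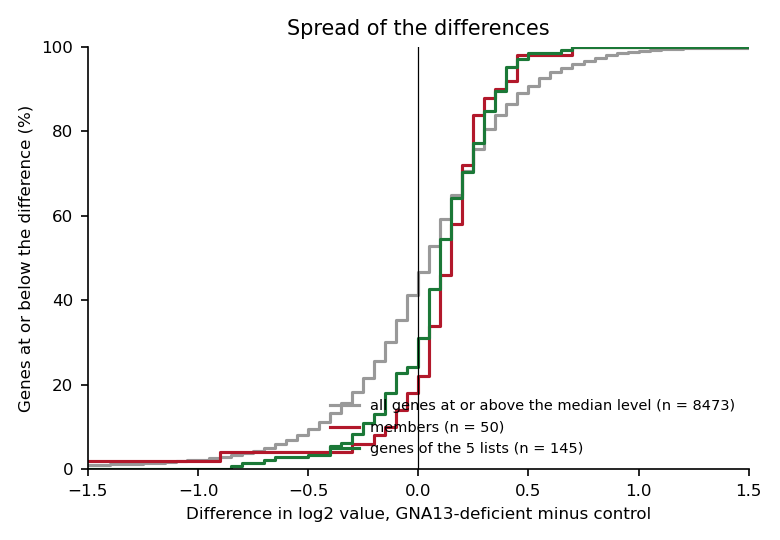
The percentage of genes at or below each difference in log2 value, for the 50 members, the 145 tested genes of the 5 lists and the 8473 genes at or above the median level. The curves of the members and of the lists are steeper than that of all abundant genes and cross the middle slightly to its right, at medians of 0.12, 0.08 and 0.03.

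Of the 3 genes that share only the name, NOL4 changed most. NOL4, known mainly from neurons, read 8.63 and 8.44 in control and 4.62 and 5.15 in the GNA13-labelled libraries. On 388 and 354 against 24 and 33 reads this was a 12.5-fold fall (-3.65 ± 0.24 SE, limma adjusted p = 0.00162). NOL3, an inhibitor of apoptosis, had only 14 and 12 against 14 and 15 reads, so that a difference of 0.23 ± 0.34 (SE) had an interval from -0.66 to 1.12. The pseudogene RRP7B (-0.19) is overlapped over its whole transcript by a same-strand entry at the same place, RRP7BP. That may be a second entry of the same gene and does not show sharing with RRP7A. Reads of RRP7B remain uncertain. Without these 3 genes the members called were 9 higher and 3 lower of 47, with a median of 0.13.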

How the data were processed

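RNA-seq of 4 NUDUL1 libraries was analysed (TruSeq Stranded mRNA, aligned by the authors to hg19 with STAR, with HTSeq named in the submitters' processing notes). The authors deposited log2 normalised reads per gene, with a first row of linear library totals. The normalisation, tool versions and use of strand in counting are not given in the sources used here, and read length is stated differently in the labels and the study. Whole reads were recovered from the steps between low values: of values under 100 reads, 100% came out whole within 0.1 read in each library, while larger read numbers are estimates limited by the 3 decimals of the deposited values. In control library 2 a single read is worth 0.984 normalised reads, below 1, and no gene came out at 1 read (1269 to 1314 genes in the others), while 9309 genes are listed at 0 (7946 to 8602). A value listed at 0 there, in read numbers and in the filter, can therefore be 0 or 1 read. All members lie above this level.

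The 16945 genes above 0 in at least 2 libraries were fitted with limma 3.58.1 (R 4.3.3, lmFit and eBayes with a trend, two-sided, genotype only) on the values as deposited, with Benjamini-Hochberg adjustment over all of them and a threshold of 0.05. Positions and overlaps come from GENCODE 44 on GRCh37.

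Members and lists were chosen with earlier results of these data known. Full statistics were given to GNA13, MYC, all POLR1 subunits, in each role the 4 called members with the largest differences and the largest against the class median, and in each list the 2 largest called. Figures used Python 3.11.15 and matplotlib 3.10.9. Of the B cell markers, 1 is not reported here.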

Additional observations from a re-analysis of the deposited data

How the results depend on the processing

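With 2 libraries per genotype the calls rest on the pooled spread. Leaving out each replicate in turn gave 0 calls in all, with 0 members higher and 0 lower by limma (9 to 11 and 2 to 4 at an unadjusted p under 0.05). A lone library is then assumed to vary like the others. The members' median lay between 0.11 and 0.14 and POLR1A between -0.036 and 0.184. With all listed genes fitted, 1999 were called, with 2 members higher and 1 lower. Without the variance trend 2718 were called, with 1 member higher (EXOSC9) and 2 lower. Median centring gave 31 higher and 2 lower, a members' median of 0.33 and POLR1D at 0.078. Quantile normalization gave a members' median of 0.079 and POLR1B at -0.017. Limma voom on recovered reads called 6 members higher, all among the 9, and the same 4 lower, beside 1905 and 3108 of all genes. It gave a members' median of 0.074, POLR1C at -0.028 and POLR1E at -0.015. BYSL, FBL, RBM7 and TAF1D, named outside the members, were not called with all listed genes fitted or without the variance trend. Causes of these changes were not tested. On the deposited scale, a filter at the median level left 54.6% of calls higher, against 44% as reported. It called 2229 of 8473 genes higher and 1854 lower, and 13 members higher and 3 lower, adding EXOSC3, NOP58, UTP11L and UTP20 to the 9.

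The replicate numbers are shared by the genotypes, but no label says that a number marks a shared culture or day. Deviations of same-numbered libraries correlated at 0.45 over 8473 genes and at 0.19 over the members, with only 2 pairs. With the replicate block, 16 members were called higher and 4 lower and 6616 genes in all, and the 9 and 4 members called without it were among them, and RRP9, NOP58 and NOLC1 were among those added. By class the block called 5 small subunit, 4 large subunit, 4 exosome and 3 snoRNP genes higher. The other alternatives, pseudocounts of 1 and 10 and a robust prior, called the same 9 and 4 members.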
